A study of Mus musculus with 2 samples.

Results

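The constitutive proteasome subunit genes were followed through CD8+ T cells sorted from mouse melanomas. Genes whose symbol is Psma, Psmb, Psmc or Psmd followed by a number were taken from the counted annotation, without the interferon-inducible catalytic subunits Psmb8, Psmb9 and Psmb10. This gave 36 of 32285 genes, of which 16 encode the core particle, 17 the regulatory particle and 3 the chaperones that assemble its base. The rule itself uses symbols and no measured value. The symbol rule also takes in Psma8, the alpha subunit of the testis, and Psmb11, the beta subunit of the thymic cortex, which are not constitutive subunits. With a mean of at least 10 UMIs per 1000000 UMIs counted (CPM) over both libraries as the floor, 34 of the 36 genes and 6899 of all genes were read well enough to compare, and Psma8 and Psmb11 were the ones below it.

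Lean and obese male C57Bl/6J mice carried transplanted B16 F0 tumors, a mouse melanoma line, and were 16 weeks old per the labels. Obese mice had been fed western diet and lean mice normal chow. CD8+ tumor-infiltrating lymphocytes (TIL) were enriched on magnetic beads, sorted on CD8 staining, captured in droplets and sequenced from the 3′ end of their mRNA, as 1 library from lean and 1 from obese mice. How many mice were pooled in a library is not given in the sources used here. The labels name no deleted gene and no drug in either group. With 1 library per diet no test between diets was possible. All intervals below are 95% intervals that cover counting error only, not differences between mice.

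The proteasome destroys proteins that have been marked with ubiquitin. Its core particle is a barrel of outer alpha rings and inner beta rings, and the cutting sites lie inside, on the beta subunits encoded by Psmb5, Psmb6 and Psmb7. The regulatory particle caps the barrel: the ATPases of its base, encoded by the Psmc genes, unfold and thread the substrate, and its lid strips the ubiquitin. In T cells, activation and division come with much protein synthesis and turnover, and interferon gamma replaces the constitutive cutting subunits with Psmb8, Psmb9 and Psmb10, whose products cut peptides that suit presentation on MHC class I.

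The 36 genes lie on 16 chromosomes. Chromosome 11 holds 6 of them, and Psmb5 and Psmb11 are neighbours on chromosome 14 with 3410 bases between them (GENCODE M21, GRCm38). RefSeq start sites on GRCm38.p6 gave a promoter of 300 bases for 29 of the 36 genes. Both strands were searched for 10 motifs. The core of the antioxidant response element, which the proteasome regulators Nfe2l1 and Nfe2l2 are known to bind, was spelled TGACNNNGC and found in 5 of the 29 promoters (17.2%), against 17.7% of the 5519 genes over the floor with a promoter. The ETS site, spelled CCGGAAG, was found in 10 of the 29 (34.5%), against 25.4% of those genes. Of the other 8 motifs, the nuclear respiratory factor 1 site was in 20.7% of the 29 promoters against 14.2%, the GC box (GGGCGG) in 62.1% against 71.1%, the CCAAT box in 41.4% against 43.1% and the E box (CACGTG) in 6.9% against 12.7%. The interferon-stimulated response element core was in 3 of the 29 (10.3%) against 4.31%, and the AP-1 site (TGANTCA) in 2 (6.9%) against 5.47%. The GAS element (TTCNNNGAA) was in 1 (3.4%) against 8.24%, and the cyclic AMP response element (TGACGTCA) in 0 against 4.13%. None of these shares says that a factor binds there. Shown are the 250 bases before the start of Psmb5 (chr14:54617996-54618245, minus strand) and Psmb6 (chr11:70525107-70525356, plus strand), catalytic subunits with an antioxidant response element core. Psmb7, the other one, was not among the 29 and was not searched. They are followed by Psmc6 (chr14:45329574-45329823, plus strand) and Psmd12 (chr11:107479278-107479527, plus strand), which hold both motifs. The capitals mark the motif matches on either strand.
Psmb5: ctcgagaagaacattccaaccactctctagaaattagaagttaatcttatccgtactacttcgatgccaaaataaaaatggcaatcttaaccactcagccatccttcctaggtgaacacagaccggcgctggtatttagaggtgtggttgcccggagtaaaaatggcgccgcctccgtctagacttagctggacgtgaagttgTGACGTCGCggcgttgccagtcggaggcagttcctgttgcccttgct
Psmb6: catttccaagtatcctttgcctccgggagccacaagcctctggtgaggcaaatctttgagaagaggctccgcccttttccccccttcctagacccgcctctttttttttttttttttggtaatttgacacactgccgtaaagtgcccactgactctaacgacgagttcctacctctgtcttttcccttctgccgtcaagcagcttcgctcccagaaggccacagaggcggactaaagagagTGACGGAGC
Psmc6: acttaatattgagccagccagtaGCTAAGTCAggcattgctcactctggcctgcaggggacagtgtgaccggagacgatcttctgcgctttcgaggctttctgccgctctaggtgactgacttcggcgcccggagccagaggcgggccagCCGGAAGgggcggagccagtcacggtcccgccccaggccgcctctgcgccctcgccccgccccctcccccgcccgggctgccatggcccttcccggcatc
Psmd12: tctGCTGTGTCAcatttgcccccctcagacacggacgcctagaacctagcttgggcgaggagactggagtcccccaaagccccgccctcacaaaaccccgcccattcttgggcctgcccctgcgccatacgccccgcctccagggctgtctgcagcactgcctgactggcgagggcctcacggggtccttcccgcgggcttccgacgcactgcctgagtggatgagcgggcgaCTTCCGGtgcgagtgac
In Psmb5 the capitals begin 47 bases, and in Psmb6 9 bases, before the start site. The matches of Psmc6 and Psmd12 to the same core begin 227 and 247 bases before it.

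After the cell filters, 2456 lean and 2289 obese cells remained, with 27815785 and 28705830 UMIs. Cells were gated on marker genes that include no proteasome gene. Cycling-like cells had a UMI of at least 3 of 12 mitosis genes or 5 of 12 S phase genes, effector-like cells of at least 3 of 9 genes such as Gzmb, Prf1 and Ifng, and naive-like cells of at least 2 of 6 genes such as Ccr7 and Lef1, with at most 1 gene of the opposite list. A cell that met the cycling-like rule was placed there whatever its other genes, and the other gates hold no such cell. The rules gave 593 lean and 530 obese naive-like, 553 and 293 effector-like, and 691 and 792 cycling-like cells, and left 619 and 674 ungated. The 9 effector genes summed to 3908 and 1984 CPM in cycling-like, 5334 and 2484 CPM in effector-like and 132 and 179 CPM in naive-like cells. Ratios of cycling-like over naive-like cells therefore do not single out division. The T cell genes Cd3d, Cd3e, Cd3g, Cd8a, Cd8b1 and Trac summed to 5722 CPM in lean and 5009 CPM in obese cells, and the 6 melanoma genes to 1.2 and 1.4 CPM. Red cell genes were at 0 in the lean library and at 320 CPM in the obese library, with 1940 CPM in its ungated cells. Dendritic cell genes stood at 95.8 and 203 CPM, with 557 CPM in obese ungated cells. The libraries shared 2 of the kept cell barcodes.

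Proteasome subunit mRNA differed more between gates than between diets. In lean cells the 36 genes summed to 3389 CPM in naive-like, 5456 CPM in effector-like and 6657 CPM in cycling-like cells. In obese cells they summed to 3228, 5185 and 6530 CPM in the same order. Both libraries thus gave the same order, and the values of the gates did not overlap. The summed level of cycling-like over naive-like cells was 0.97 on the log2 scale (0.949 to 0.9993) in lean and 1.02 (0.99 to 1.04) in obese cells, close to 2-fold. Effector-like cells stood 0.69 (0.66 to 0.72) and 0.68 (0.65 to 0.72) above naive-like cells. As a share of the single cell's UMIs, the genes held a median of 0.327% in lean naive-like cells, 0.497% in effector-like and 0.632% in cycling-like cells, and 0.311%, 0.481% and 0.621% in obese cells. A median naive-like cell carried 22 UMIs of these genes in either library, and a median cycling-like cell 124 in lean and 126 in obese. Division of these values by all UMIs does not remove depth, because cycling-like cells held a median of 19839 and 20059 UMIs and naive-like cells 7035 and 7452.5.

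**Figure D1:**
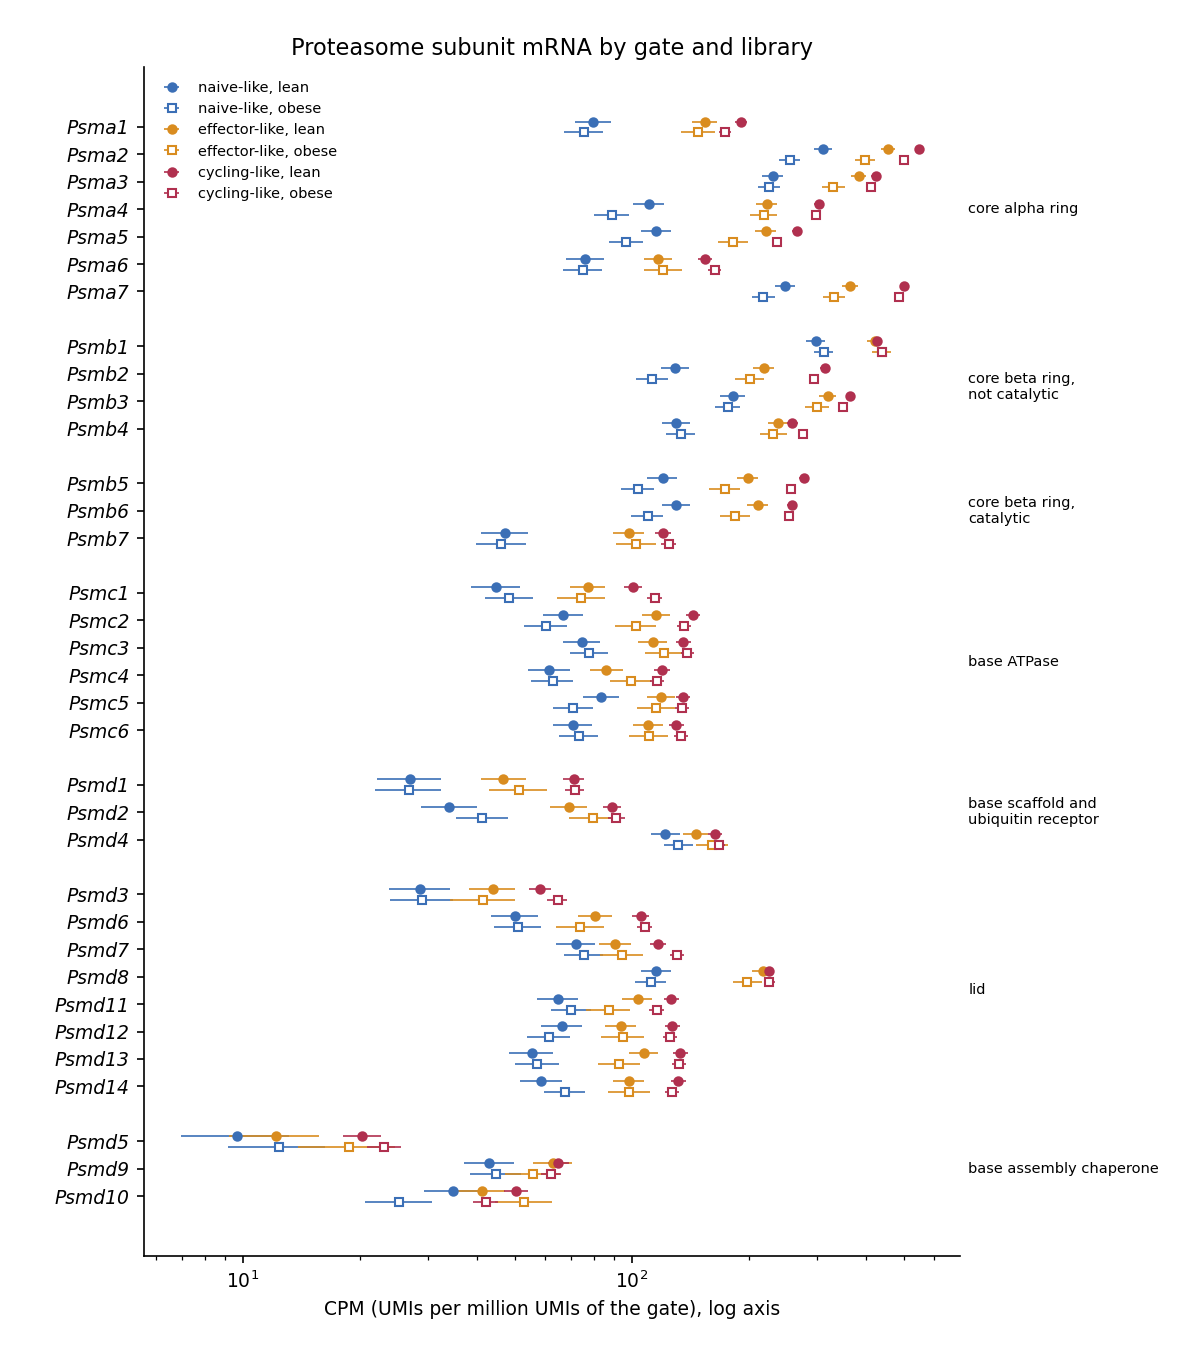
Level of each of the 34 subunit genes over the floor, in CPM on a log axis, by role. Filled circles are the lean and open squares the obese library, colors are gates and bars are exact Poisson 95% intervals. The naive-like value is the lowest gate value of every gene in its library, and the lean and obese values of a gate lie close together.

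Of the 34 genes over the floor, 30 were at least 1.5-fold higher in cycling-like than in naive-like cells in both libraries, against 33% of all genes over the floor, and 0 were that much lower, against 8.93%. The median of the 34 was 1.01 on the log2 scale in lean and 1.04 in obese cells, while the median of all genes was 0.38 and 0.36. The 4 genes short of that fold were Psmb1, Psmd4, Psmd9 and Psmd10, and these too were above 0 in both libraries. In effector-like against naive-like cells 18 of the 34 were at least 1.5-fold higher in both libraries, against 23.8% of all genes, and 0 lower, against 4.73%, with medians of 0.69 and 0.68 beside 0.34 and 0.32 for all genes. From effector-like to cycling-like cells 0 of 34 passed 1.5-fold higher, where 10% of all genes did, 0 passed lower, where 5.46% did, and the medians were 0.31 and 0.35 beside -0.03 and -0.02. No test across replicates stands behind these counts, which rest on the size of the fold alone.

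The counts depend on the total that UMIs are divided by. Scaled by TMM factors (trimmed mean of M values, which aligns the bulk of genes), 5 of 34 genes passed in effector-like over naive-like cells, where 12.6% of all genes did. With mitochondrial and ribosomal protein genes taken out of the total, 3 of 34 passed, where 10.7% of all genes did. Under both settings the members' count for effector-like cells was thus near the share of all genes. In cycling-like over naive-like cells 27 and 22 of 34 passed, where 25.1% and 19.3% of all genes did. Among all genes the share of calls that were higher moved from 83.4% to 57.2% and 48.9% in the effector-like comparison, and in the cycling-like comparison from 78.7% to 66.3% and 52.9%. For cycling-like over effector-like cells TMM factors moved it from 64.7% to 79.4%. Averaged over the libraries, the median of all genes was 0.37 in cycling-like and 0.33 in effector-like over naive-like cells as reported, and the members' median lay 0.65 and 0.36 above it. Another total shifts every gene alike, so these distances hardly change by construction. They were 0.66 and 0.36 both with TMM factors and with the reduced total.

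**Figure D2:**
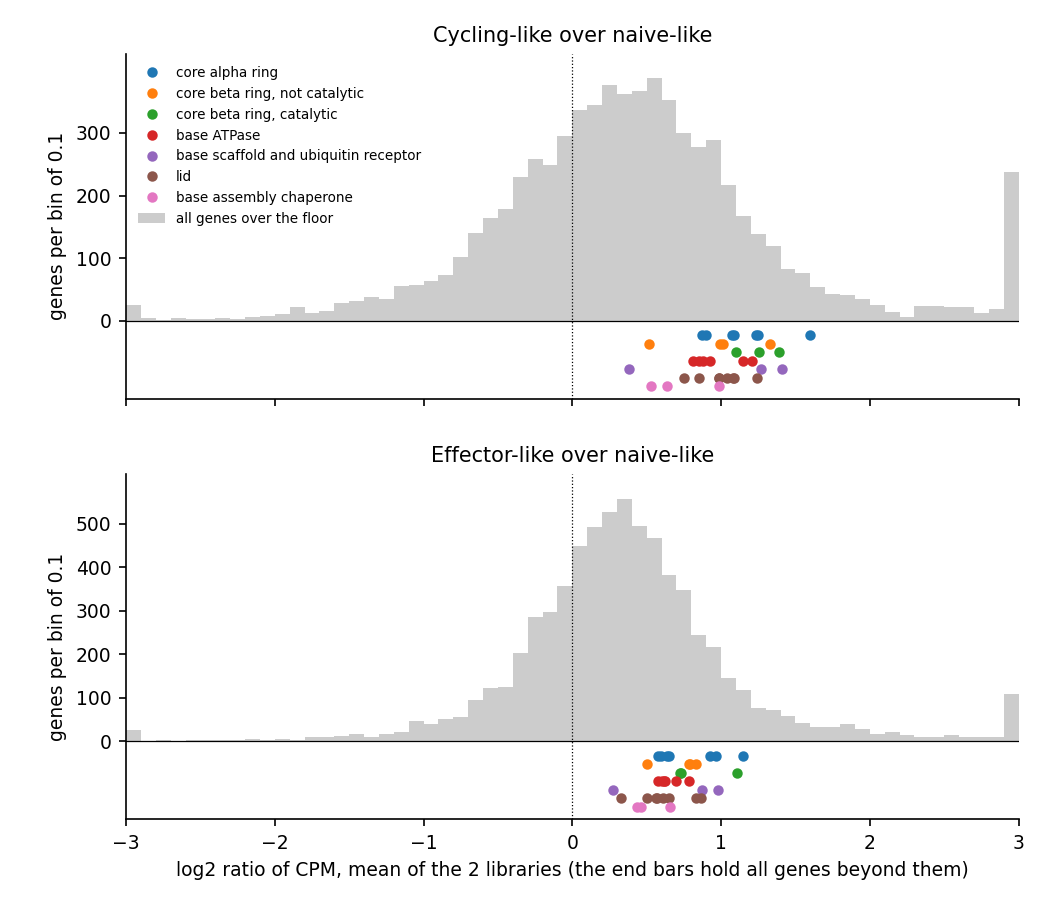
Log2 ratio of CPM between gates, as the mean of both libraries. Gray bars count all 6899 genes over the floor in bins of 0.1, with genes beyond the axis in the end bars, and dots below the line are the 34 subunit genes by role. The dots of the upper panel lie between 0.38 and 1.60, and those of the lower panel between 0.27 and 1.15.

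The alpha ring, which gates the entrance of the barrel, passed the fold with 7 of 7 genes over the floor in cycling-like cells. The share of all genes was 33%. Psma4 had the highest ratio of all subunit genes. It stood at 111 CPM in lean and 88.9 CPM in obese naive-like cells, 222 and 219 CPM in effector-like cells, and 303 and 298 CPM in cycling-like cells, a log2 ratio of cycling-like over naive-like of 1.45 (1.32 to 1.59) in lean and 1.74 (1.59 to 1.90) in obese cells. Psma3 had the lowest ratio of the ring as the mean of both libraries, 0.88 (0.78 to 0.98) and 0.87 (0.77 to 0.97), from a high start of 231 and 226 CPM in naive-like cells. Psma2 was the most abundant subunit mRNA over all cells, at 476 CPM in lean and 429 CPM in obese cells. Psma6, the lowest of the ring at 127 and 136 CPM, had ratios of 1.02 (0.85 to 1.19) and 1.12 (0.95 to 1.30). Psma8 had 0 UMIs in lean and 3 UMIs in obese cells, and a count of 0 there allows at most 0.133 CPM.

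Among the beta subunits without a cutting site, Psmb2 had the highest ratio, from 130 and 113 CPM in naive-like to 313 and 294 CPM in cycling-like cells, or 1.28 (1.15 to 1.41) and 1.38 (1.24 to 1.52). Psmb1 had the lowest of the beta rings. It was already at 297 CPM in lean and 311 CPM in obese naive-like cells, and reached 427 and 441 CPM in cycling-like cells, ratios of 0.52 (0.44 to 0.61) and 0.50 (0.41 to 0.59). Psmb4 lay in between, at 0.99 (0.86 to 1.12) and 1.04 (0.91 to 1.17). In obese naive-like and effector-like cells Psmb1 rather than Psma2 was the most abundant subunit mRNA.

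With all UMIs as the total, the 3 constitutive cutting subunits were all past the fold in cycling-like cells, against 33% of all genes. In effector-like cells all 3 were past it too, against 23.8%. With TMM factors and with the reduced total, only 5 and 3 of all 34 subunit genes passed there. Psmb5, the chymotrypsin-like site, stood at 120 and 104 CPM in lean and obese naive-like cells, 199 and 174 CPM in effector-like cells and 278 and 256 CPM in cycling-like cells. Psmb6, the caspase-like site, stood at 130 and 110 CPM, then 211 and 185 CPM, then 258 and 254 CPM. Psmb7, the trypsin-like site, was the least abundant, at 47.3 and 46.3 CPM, then 98.5 and 103 CPM, then 121 and 125 CPM. Their ratios of cycling-like over naive-like cells were 1.21 (1.08 to 1.35) and 1.31 (1.16 to 1.45) for Psmb5, 0.99 (0.86 to 1.12) and 1.21 (1.07 to 1.35) for Psmb6, and 1.35 (1.14 to 1.57) and 1.43 (1.21 to 1.65) for Psmb7. Psmb11 had 0 UMIs in lean and 1 UMI in obese cells.

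Each constitutive cutting subunit was read beside the inducible subunit that takes its place. In every gate and library the inducible mRNA was the more abundant of the pair. Psmb5 made up 12.7% (11.7 to 13.8) of the UMIs of Psmb5 and Psmb8 in lean naive-like, 13.5% (12.7 to 14.3) in effector-like and 17.9% (17.4 to 18.4) in cycling-like cells, and 13.7%, 12.5% and 18.1% in obese cells. Psmb7 made up 15.0% (13.1 to 17.0) of Psmb7 and Psmb10 in lean naive-like, 27.2% (25.1 to 29.3) in effector-like and 31.8% (30.6 to 33.0) in cycling-like cells. The obese values were 18.6% (16.2 to 21.1), 27.9% (25.1 to 30.8) and 35.98% (34.8 to 37.2). Psmb6 took another course, with 35.0% (32.6 to 37.4) of Psmb6 and Psmb9 in lean naive-like, 29.0% (27.5 to 30.5) in effector-like and 32.6% (31.8 to 33.5) in cycling-like cells, and 35.0%, 30.5% and 37.3% in obese cells. These shares do not depend on the total. Psmb10 itself stood at 268, 264 and 259 CPM in lean naive-like, effector-like and cycling-like cells, with overlapping intervals, and at 203, 265 and 222 CPM in obese cells, highest in effector-like cells. Psmb9 stood at 242, 517 and 532 CPM in lean and 204, 422 and 427 CPM in obese cells.

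Cells of like depth were compared for these pairs after the values above had been seen. Among cells with 5000 to 10000 UMIs the Psmb7 share was 15.1% (12.9 to 17.5), 23.3% (20.1 to 26.8) and 24.5% (18.1 to 31.9) in lean and 17.5%, 23.5% and 28.3% in obese naive-like, effector-like and cycling-like cells. In lean cells the intervals of naive-like and effector-like cells did not overlap. In obese cells they did, at 14.6 to 20.6 and 19.1 to 28.3, and the cycling-like interval of 22.8 to 34.4 lay above that of naive-like cells. Effector-like and cycling-like intervals overlapped in both libraries. For Psmb5 the lean values in these cells were 12.5% (11.3 to 13.8), 12.5% (11.3 to 13.9) and 14.9% (12.2 to 17.9), with overlapping intervals. The obese values were 13.7% (12.2 to 15.2), 10.3% (8.68 to 12.03) and 13.6% (11.3 to 16.1), and there the effector-like interval lay below that of naive-like cells. For Psmb6 the lean values were 36.5% (33.6 to 39.5), 26.1% (23.7 to 28.6) and 33.2% (28.2 to 38.6). The obese Psmb6 values were 34.8% (31.6 to 38.1), 25.4% (21.7 to 29.4) and 33.7% (29.1 to 38.4). In both libraries its effector-like interval lay below that of naive-like cells, and the cycling-like interval overlapped both.

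**Figure D3:**
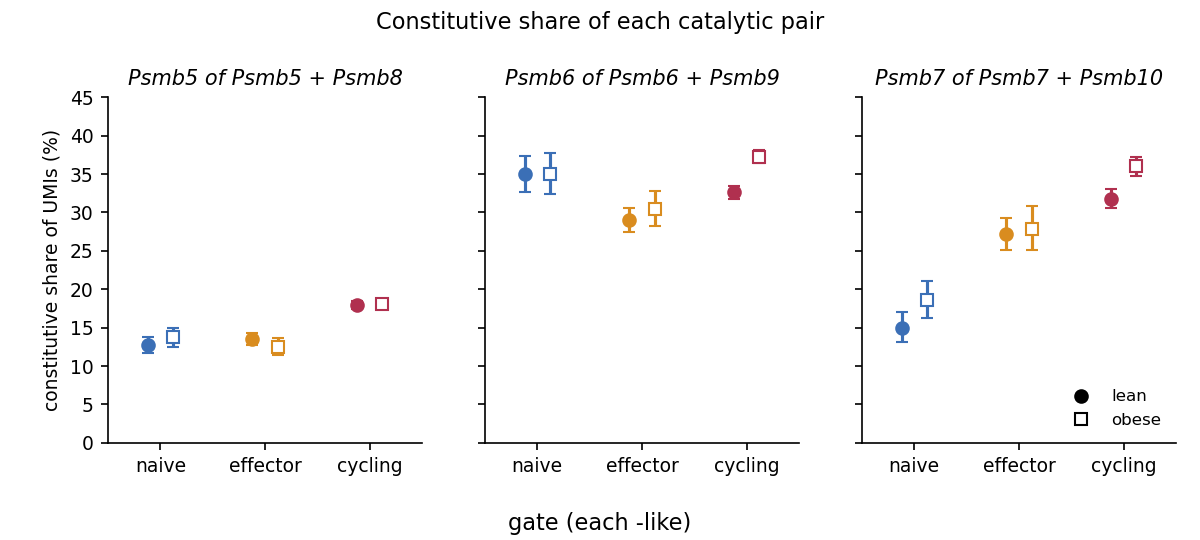
Percent of the UMIs of each pair that belong to the constitutive subunit, by gate. Filled circles are the lean and open squares the obese library, with exact Clopper-Pearson 95% intervals. The Psmb7 share stands lowest in naive-like cells of both libraries, and the Psmb6 share lowest in effector-like cells.

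In the base of the regulatory particle, the 6 ATPase genes were all past the fold in cycling-like cells, against 33% of all genes. Psmc1 had the highest ratio, 1.17 (0.95 to 1.39) in lean and 1.24 (1.03 to 1.46) in obese cells, from 44.9 and 48.5 CPM in naive-like to 101 and 115 CPM in cycling-like cells. Psmc5 had the lowest as the mean of both libraries, 0.70 (0.53 to 0.86) and 0.93 (0.75 to 1.11). In obese cells Psmc3 had the lowest, at 0.84. The levels of the ATPase genes, whose products form 1 ring, spanned a narrow range over all cells, from 88.1 CPM for Psmc1 to 120 CPM for Psmc3 as the mean of both libraries. Of the scaffold and receptor genes, Psmd1 and Psmd2, the large scaffold subunits, had ratios of 1.40 (1.12 to 1.69) and 1.42 (1.13 to 1.71), and of 1.39 (1.14 to 1.65) and 1.14 (0.91 to 1.38). Psmd4, the ubiquitin receptor, had the lowest ratio of all 34 genes. It stood at 122 and 132 CPM in naive-like, 146 and 161 CPM in effector-like and 164 and 167 CPM in cycling-like cells, ratios of 0.42 (0.29 to 0.56) and 0.34 (0.21 to 0.48) that lay near the median of all genes.

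The lid was past the fold with 8 of 8 genes in cycling-like cells, against 33% of all genes. In effector-like cells 2 of 8 passed, Psmd8 and Psmd13, against 23.8%, so that this count was near the share of all genes. Psmd13 had the highest ratio of the lid, from 55.3 and 57.2 CPM in naive-like to 134 and 133 CPM in cycling-like cells, or 1.27 (1.08 to 1.47) and 1.21 (1.02 to 1.42). Psmd7, a partner of the deubiquitinase Psmd14, had the lowest as the mean of both libraries, 0.70 (0.52 to 0.88) and 0.80 (0.63 to 0.98). In obese cells Psmd11 was lower, at 0.73. Psmd8 was the most abundant lid mRNA, at 200.1 CPM in lean and 195 CPM in obese cells, and Psmd3 the least, at 48.4 and 52.6 CPM. Of the 3 chaperones of the base, Psmd9 and Psmd10 did not pass the fold in cycling-like cells, nor did Psmb1 and Psmd4 of other roles. Psmd9 had ratios of 0.59 (0.36 to 0.83) and 0.47 (0.24 to 0.70), and Psmd10 of 0.54 (0.28 to 0.80) and 0.74 (0.44 to 1.05). Psmd5 passed the fold at 1.07 (0.59 to 1.57) and 0.90 (0.48 to 1.36). Its level was the lowest of all 34 genes, 16.8 CPM in lean and 19.6 CPM in obese cells. The highest and lowest of the 34 levels lay 28.4-fold apart in lean and 21.9-fold apart in obese cells. Since a molecule gives 1 tag at its 3′ end, CPM was not divided by transcript length. How well each 3′ end is captured was not tested. Across the 34 genes the order of levels in lean and obese cells had a Spearman rho of 0.988, as a description over genes that share libraries.

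Over cells of all depths, core and regulatory particle kept a similar proportion between gates. The share of the core was taken of the UMIs of the 16 core and 17 regulatory particle genes. It was 66.8% (66.0 to 67.6) in lean naive-like, 67.8% (67.2 to 68.4) in effector-like and 67.6% (67.3 to 67.9) in cycling-like cells. In obese cells the core held 64.5% (63.7 to 65.4), 66.5% (65.6 to 67.2) and 66.6% (66.4 to 66.9), the naive-like interval lying below the others. Within each of these gates the obese value was the lower one. The intervals of lean and obese did not overlap in naive-like and cycling-like cells and met at 67.2% in effector-like cells. These shares do not depend on the total. They leave out Sem1 and Adrm1, regulatory particle subunits without a Psm symbol, which summed to 865 CPM in lean and 786 CPM in obese cycling-like cells. The 17 genes stood there at 2114 and 2136 CPM. With Sem1 and Adrm1 counted, the core share would be lower and the gap between libraries smaller in each of these gates. Ungated cells gave 65.8% and 66.0%, the obese value being the higher. In cells with 5000 to 10000 UMIs, a window chosen after these values were seen, the lean and obese shares were 67.0% and 64.0% in naive-like and 68.6% and 66.3% in effector-like cells. In cycling-like cells of that window the order turned, with 63.1% (61.1 to 65.0) in lean and 64.8% (63.1 to 66.5) in obese cells. The lean cycling-like interval there lay below those of naive-like (66.0 to 67.9) and effector-like cells (67.6 to 69.6). In obese cells of the window the intervals of the gates overlapped.

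Depth moved with the summed level inside the gates. In cells with 5000 to 10000 UMIs the 36 genes stood at 3284 CPM in lean and 3117 CPM in obese naive-like cells, 5159 and 4759 CPM in effector-like cells and 5205 and 5282 CPM in cycling-like cells. In lean cells the effector-like and cycling-like values had overlapping intervals at this depth (5052 to 5268 and 5005 to 5411), in obese cells they did not (4617 to 4904 and 5102 to 5466). Naive-like cells stayed lower in both libraries. In deeper cells of 20000 to 50000 UMIs cycling-like cells reached 6970 and 6849 CPM. The 22 lean effector-like cells of that depth stood at 6776 CPM (6562 to 6995), overlapping the lean cycling-like interval (6919 to 7020). For obese effector-like cells no value is given at that depth. At 10000 to 20000 UMIs effector-like cells stood at 5730 and 5544 CPM and cycling-like cells at 6096 and 5889 CPM. The intervals there lay apart in both libraries. The few cycling-like cells below 5000 UMIs, 28 lean and 38 obese, held 2707 and 2955 CPM, below the naive-like value of 3509 CPM in lean cells. The part of depth in the gate differences was not tested beyond these values.

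**Figure D4:**
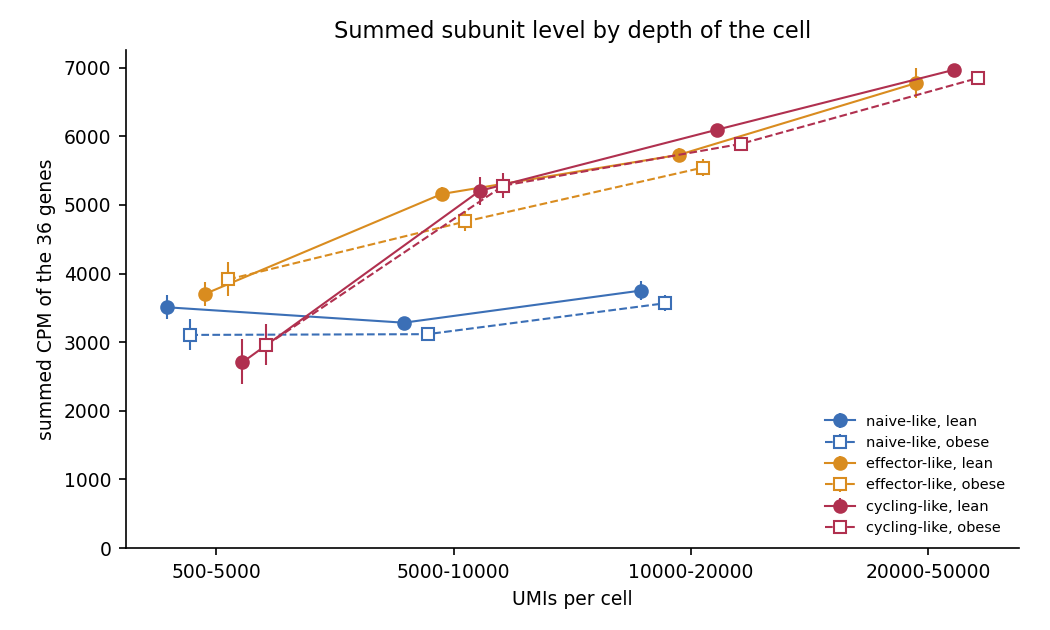
Summed CPM of the 36 genes by UMIs per cell, for bins with at least 20 cells. Lines join bins of 1 gate, filled circles and solid lines are lean, open squares and dashed lines are obese, and bars are exact Poisson 95% intervals. Effector-like and cycling-like cells climb with depth, and naive-like cells stay between 3106 and 3753 CPM.

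Cycling-like cells were also split by the list that they passed, after the gate values had been seen. Cells that passed both lists had 6895 CPM in lean and 6754 CPM in obese cells. Cells that passed the S phase genes alone had 5966 and 5777 CPM, and those that passed the mitosis genes alone 5794 and 6021 CPM. All of these arms lay above effector-like cells of the same library, but all were also deeper. The shallowest arm, mitosis genes alone, had medians of 10899 and 11440 UMIs, against 7916 and 8214 in effector-like cells. The arms were not compared with effector-like cells of like depth. The cells that passed both lists were also the deepest, with medians of 24917 and 24191 UMIs, so that phase and depth cannot be told apart here.

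Other genes of the pathway, taken from lists of known function, did not all share the pattern of the subunits. The counts below are of genes 1.5-fold higher in cycling-like over naive-like cells in both libraries, where 33% of all genes passed. Among core assembly factors 3 of 5 passed: Pomp, Psmg2 and Psmg3. Pomp, which matures the core, had ratios of 0.95 and 1.06. Of the activators and inhibitor of the core 1 of 5 passed, Psme3, the nuclear activator, and the interferon-inducible Psme1 had -0.01 and 0.22. The proteasome-bound deubiquitinases Usp14 and Uchl5 passed with 1.17 in both libraries and with 1.26 and 1.03. Of the p97 segregase and its cofactors 3 of 4 passed, including Vcp at 0.93 and 0.95. Of ubiquitin and its activating enzymes 1 of 6 passed higher, the activating enzyme Uba6 at 1.27 and 0.71. Of the regulators of proteasome gene expression over the floor, Nfe2l1, which drives proteasome genes when proteasomes are short, passed at 0.62 and 0.65, and Nfe2l2, its stress-responsive relative, was lower at -1.87 and -1.54. Sem1, a lid subunit without a Psm symbol, passed at 0.80 and 0.86.

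Other large complexes were read for scale. In cycling-like over naive-like cells 5 of 8 genes of the CCT chaperonin, 5 of 8 of the COP9 signalosome, which resembles the proteasome lid, and 5 of 13 of the initiation factor eIF3 passed 1.5-fold higher, against 30 of 34 proteasome subunits and 33% of all genes. Cct6a was lower, at -1.84 in both libraries. The immunoproteasome genes passed with 2 of 3, Psmb8 at 0.62 and 0.83 and Psmb9 at 1.14 and 1.06. No test compares these lists.

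Between diets, subunit mRNA differed little. Over all cells the 36 genes summed to 5650 CPM in lean and 5549 CPM in obese cells, a log2 ratio of obese over lean of -0.026 (-0.036 to -0.016). Within gates it was -0.070 (-0.104 to -0.036) in naive-like, -0.074 (-0.103 to -0.044) in effector-like and -0.028 (-0.040 to -0.015) in cycling-like cells. The sign turned with all deposited cells, where the ratio was 0.031, and other settings turned it within gates. Of the 34 genes 0 were at least 25% higher in obese cells over all cells, against 7.62% of all genes, and 0 were at least 20% lower, the same fold downward, against 3.83%. The median of the 34 was -0.01, and that of all genes 0.03. TMM factors moved the share of higher calls among all genes from 66.6% to 51.9%.

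The alpha ring and the cutting subunits lay below 0 over all cells and in each of the 3 gates. The summed ratio of the alpha ring was -0.074 (-0.091 to -0.057) over all cells, -0.178 (-0.238 to -0.118) in naive-like, -0.15 (-0.20 to -0.10) in effector-like and -0.071 (-0.092 to -0.050) in cycling-like cells. Psma5 had the lowest ratio of all 34 genes over all cells, 223 CPM in lean and 198 CPM in obese cells, or -0.17 (-0.23 to -0.12). It stood at 116 and 96.8 CPM in naive-like, 221 and 182 CPM in effector-like and 266 and 237 CPM in cycling-like cells, with the obese value lower each time. Psma2 was lower by -0.15 (-0.19 to -0.11) over all cells, and by -0.28 (-0.40 to -0.16) in naive-like cells, at 310 CPM in lean and 255 CPM in obese cells. Over all cells Psma6 stood apart in the ring at 0.10 (0.03 to 0.16). The other beta subunits were level over all cells, with an interval of -0.022 to 0.022. The cutting subunits summed there to -0.050 (-0.083 to -0.017), with Psmb5 at -0.10 (-0.16 to -0.05) and Psmb7 at 0.06 (-0.02 to 0.13). In naive-like cells the cutting subunits summed to -0.19 (-0.31 to -0.07), with Psmb5 at -0.21 (-0.40 to -0.02) and Psmb7 at -0.03 (-0.33 to 0.26).

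The 17 regulatory particle genes were close to level between diets, at 0.018 over all cells with an upper bound of 0.036. TMM factors moved the median of all genes from 0.03 to -0.01, which is more than this distance from 0. The sum is partial, because the symbol rule leaves out Sem1 and Adrm1. These summed to 764 CPM in lean and 690 CPM in obese cells, beside 1804 and 1827 CPM for the 17 genes. The sign of the ratio thus depends on leaving them out. Psmc1 was highest among the ATPases at 0.16 (0.08 to 0.24), with 83.3 CPM in lean and 92.8 CPM in obese cells, and Psmc2 lowest at -0.09 (-0.16 to -0.02). In the lid, Psmd7 stood at 0.17 (0.09 to 0.24), with 99.8 and 112 CPM, and Psmd11 at -0.09 (-0.17 to -0.02). The scaffold and receptor genes summed to 0.049 (0.005 to 0.093). Adrm1, a ubiquitin receptor of the same particle that the symbol rule leaves out, passed that fold downward at -0.54 (-0.66 to -0.41).

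Within gates, the subunit genes past that fold were few and mostly of low level. In naive-like cells 1 of 34 was higher, Psmd5, against 17.6% of all genes, and 1 was lower, Psmd10, against 9.02%. Psmd5 went from 9.69 CPM in lean to 12.4 CPM in obese naive-like cells, a ratio of 0.35 with an interval of -0.27 to 0.99 that holds 0. In effector-like cells 2 of 34 were higher, Psmd5 and Psmd10, against 17% of all genes, and 0 were lower, against 11.9%. Psmd5 stood there at 12.2 and 18.7 CPM, or 0.62 (0.05 to 1.19). TMM factors changed these calls. In naive-like cells 0 were then higher, against 13.9% of all genes, and 3 lower, Psma2, Psma4 and Psmd10, against 11.7%. In effector-like cells 1 was then higher, Psmd5, and 1 lower, Psma5, against 13.9% and 15.8%. With the reduced total Psma4 joined Psmd10 among the lower genes of naive-like cells. In cycling-like cells 0 were higher and 0 lower, against 8.81% and 4.9%. In ungated cells 0 were higher, against 13.3%, and 2 were lower, Psmd1 and Psmd13, against 9.07%.

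**Figure D5:**
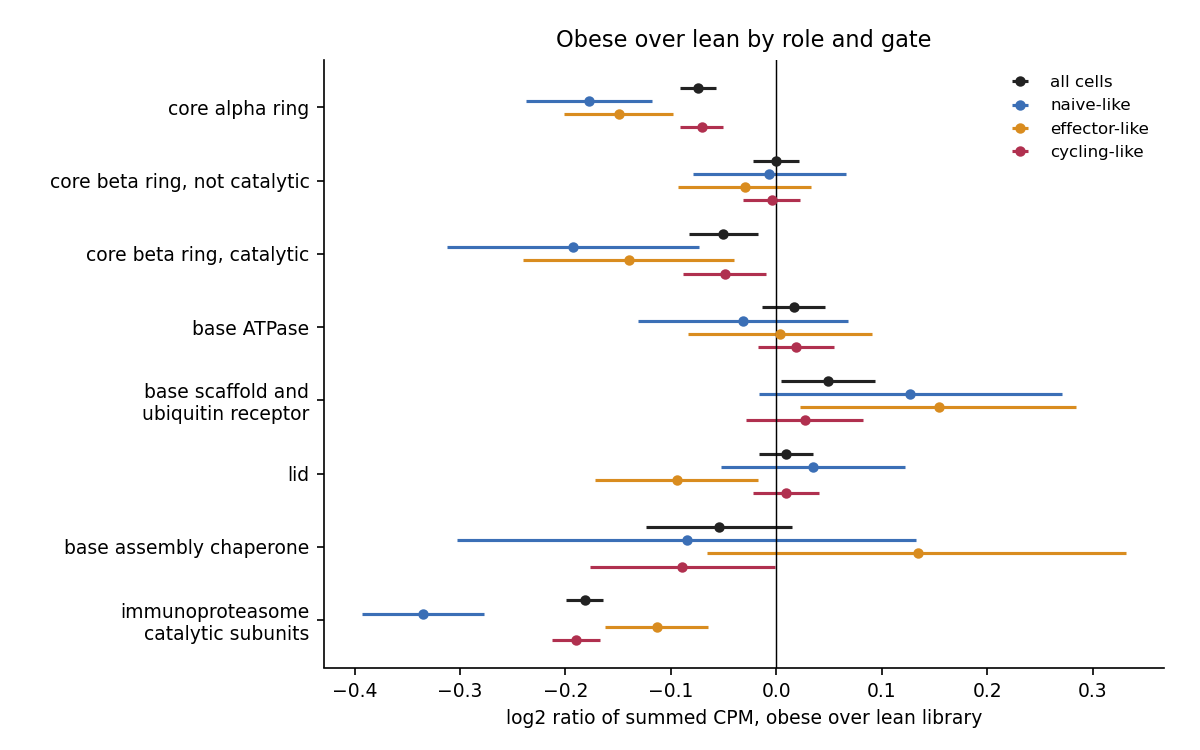
Log2 ratio of obese over lean summed CPM for each role of the proteasome and for the inducible cutting subunits. Colors are all cells and the gates, and bars are exact conditional binomial 95% intervals. Alpha ring values lie between -0.18 and -0.07, regulatory particle roles lie on both sides of 0, and the inducible subunits lie lowest over all cells, at -0.18.

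The inducible cutting subunits were lower in obese cells by more than the constitutive ones over all cells. Summed, Psmb8, Psmb9 and Psmb10 stood at 1917 CPM in lean and 1690 CPM in obese cells, a ratio of -0.18 (-0.20 to -0.16), with -0.34 (-0.39 to -0.28) in naive-like cells. The 3 constitutive partners stood at -0.050 over all cells, and the intervals of these ratios did not overlap. In naive-like cells they did overlap, the constitutive subunits being at -0.19 (-0.31 to -0.07). They also did in effector-like cells, at -0.11 (-0.16 to -0.06) for the inducible and -0.14 (-0.24 to -0.04) for the constitutive subunits. The constitutive share of Psmb7 and Psmb10 was 26.8% (26.0 to 27.7) in lean and 30.8% (29.9 to 31.8) in obese cells, and that of Psmb6 and Psmb9 31.6% (30.9 to 32.2) and 35.2% (34.5 to 35.9). The share of Psmb5 and Psmb8 was 15.9% (15.5 to 16.3) and 16.2% (15.8 to 16.6). Within cells of 5000 to 10000 UMIs the first of these shares was 17.6% (16.1 to 19.2) and 20.3% (18.6 to 22.2), with overlapping intervals. The Psmb6 share was 30.1% (28.6 to 31.6) and 29.7% (28.0 to 31.4) at this depth. By gate the lean and obese Psmb6 intervals lay apart only in cycling-like cells, at 32.6% (31.8 to 33.5) and 37.3% (36.4 to 38.1). The window held 65 lean and 77 obese cycling-like cells, with 33.2% (28.2 to 38.6) and 33.7% (29.1 to 38.4). For Psmb7 too the intervals lay apart only in cycling-like cells, at 31.8% and 35.98%. The parts of depth and gate in these differences were not tested. Immediate early genes such as Fos and Jun also differed between libraries, at 3842 CPM in lean and 5164 CPM in obese cells, and the effector genes of the gate at 3255 and 1611 CPM. Dendritic cell genes differed in naive-like cells, at 57.9 CPM in lean and 283 CPM in obese cells. Their part in the proteasome values was not tested.

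For 12 of the 36 genes the last 400 bases of a transcript matched a transcript of another gene at 97% identity or more over at least 90 bases. Of these matches, those of Psmb7, Psmc3 and Psmd11 are genes with rows of their own in the counts, so that the counting may have left out or split some of their reads. The same holds for the inducible Psmb8, whose match Gm20496 was counted, and so for the share of Psmb5 and Psmb8, as for that of Psmb7 and Psmb10. Matches on either strand were taken and their strand was not kept. Whether they changed the counts was not tested.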

How the data were processed

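Single-cell RNA was measured in CD8+ TIL of 1 lean and 1 obese library. The authors deposited, for each library, a matrix whose values are each gene's UMI count in each cell, made with Cell Ranger 6.0.2 on mm10 per the submitters' processing notes, without normalization. The study states 5320 cells after its filters, which equals the number of barcodes deposited, but its stated limits on UMIs and mitochondrial share leave 4745 of them. Those limits (over 500 and under 50000 UMIs, under 7.5% mitochondrial UMIs) were applied here and left out 575 cells. Doublets were neither called nor removed here.

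CPM are the summed UMIs of a gene in the cells of 1 library and gate, relative to 1000000 UMIs of the same cells (Python 3.11.15, numpy 2.4.6, scipy 1.17.1, pandas 2.3.3). CPM carry exact Poisson, log2 ratios exact conditional binomial and shares exact Clopper-Pearson 95% intervals. UMIs count molecules, so these intervals cover counting error only. A gene was called between gates at 1.5-fold in the same direction in both libraries, and between diets at 25% higher or 20% lower, among genes with a mean of at least 10 CPM. A count of 0 was set to 3 UMIs in ratios across all genes. TMM factors came from edgeR 4.0.16 in R 4.3.3. The steps were tested on simulated counts.

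The genes, gates and lists were chosen with earlier results of these data known. Named are the cutting subunits, and in each role the genes with the highest and lowest level, gate ratio and diet ratio, and those under the floor. The named genes of the pathway lists and the promoters shown were chosen after their values were seen. All other subunit genes enter through counts, ranges and figures. Promoters are from RefSeq (GRCm38.p6), positions and transcripts from GENCODE M21, with transcript ends compared by blastn.

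The alternatives were TMM factors, removal of mitochondrial and ribosomal protein genes from the total, averaging of single cells, thinning each cell to 2000 UMIs, a depth window, 2 other cell filters, 2 other gate rules, other floors and larger folds. The shares in cells of 5000 to 10000 UMIs and in all deposited cells were added after the data were seen. Some genes of the pathway and gate lists are not reported here by name.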

Additional observations from a re-analysis of the deposited data

Results flagged for a closer look

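Psmd10, a chaperone of the proteasome base, was flagged because its diet ratios had opposite signs in 2 gates. It was higher in obese than in lean effector-like cells, at 0.36 on the log2 scale (0.04 to 0.68), with 41.2 CPM in lean and 52.9 CPM in obese cells. It was lower in obese naive-like cells, at -0.46 (-0.84 to -0.09), with 34.7 and 25.2 CPM. With TMM factors it no longer passed the fold in effector-like cells. With 1 library per diet the difference between the gates was not tested.

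Cells outside the limits on UMIs and mitochondrial share enter no comparison above and were flagged because they hold subunit mRNA. In cells at or over the mitochondrial limit the 36 genes summed to 2572 CPM (2403 to 2749) in 158 lean cells and 2578 CPM (2451 to 2709) in 213 obese cells. In cells at or over the upper UMI limit they summed to 7064 CPM (6995 to 7133) in 83 lean and 7509 CPM (7454 to 7564) in 121 obese cells.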

How the results depend on the processing

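The sizes above moved with the scaling and in the depth window, and 1 library per diet leaves all differences without a replicate check. Summed subunit mRNA stayed higher in cycling-like and effector-like than in naive-like cells under all 9 alternatives run for it. For cycling-like over naive-like cells the log2 ratio moved in lean and obese cells to 0.79 and 0.86 with TMM factors, 0.63 and 0.71 without mitochondrial and ribosomal protein genes in the total, 0.90 and 0.96 as a mean over cells, and 0.78 and 0.82 in cells of 5000 to 15000 UMIs. It moved to 0.90 in lean cells thinned to 2000 UMIs, and in obese cells to 1.09 with all deposited cells and 1.07 with gates set on shares of UMIs. For effector-like over naive-like cells it moved to 0.41 and 0.40 with TMM factors, 0.31 and 0.34 with the reduced total, 0.54 and 0.61 as a mean over cells, 0.79 and 0.95 with gates on shares, and 0.72 and 0.76 with the cycling-like gate on mitosis genes alone. In lean cells thinning gave 0.58.

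The ratio of obese over lean was not stable in sign. Over all cells it moved to -0.071 with TMM factors, -0.015 as a mean over cells, -0.0054 when thinned and -0.095 in the depth window, and turned to 0.031 with all deposited cells. In naive-like cells it moved to -0.12 with TMM factors and -0.12 with gates on shares. In effector-like cells it moved to -0.13 with TMM factors, -0.020 as a mean over cells, -0.0063 when thinned and -0.0061 with mitosis genes alone, and turned to 0.050 with gates on shares. In cycling-like cells it moved to -0.013 with the reduced total and turned to 0.011 when thinned and 0.018 with all deposited cells. The causes were not tested.

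Of the counts, cycling-like over naive-like fell to 15 of 34 at 2-fold, where 16.8% of all genes passed. Effector-like over naive-like became 5 with TMM factors (12.6% of all genes), 3 with the reduced total (10.7%), 11 as a mean over cells (22.2%), 29 with gates on shares (27.2%) and 2 at 2-fold (9.65%). Between diets 1 of 36 genes, Psmb11, was called lower without a floor, where 10.4% of all genes were. Its 0 UMIs in the lean library were set to 3 UMIs, so the call comes from that setting and not from a lower obese count. Single named genes kept their sign between cycling-like and naive-like cells in all 234 alternatives, and changed it between diets in 17 of 182. No paired analysis was possible because each group has 1 library and no test was run.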
